A study of Homo sapiens with 6 samples.

Results

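Tubulin isotypes of Meg-01 cells were described here by 10 genes, the platelet isotype TUBB1 with TUBB, TUBB2A, TUBB3, TUBB4B and TUBB6 (beta-tubulins) and TUBA1A, TUBA1B, TUBA1C and TUBA4A (alpha-tubulins). The members were chosen by gene symbol, and the Ensembl identifiers of the deposited count table were matched to those symbols, which gave 10 of 58735 genes. Of these, 9 passed the count filter (10 or more counts in 3 or more libraries), as did 15078 genes in all, and TUBB3 was listed at 0 in every library. The study sequenced mRNA of Meg-01, an established human megakaryoblastic cell line, with 3 libraries of cells given no treatment (control) and 3 of cells given sodium propionate at 500 µM (C3) for 48 h. Propionate is a product of fibre fermentation in the gut and one of the short-chain fatty acids. The methods also name a shorter incubation, and a figure legend of the study describes the 3 libraries as technical replicates, so p-values measure the spread between these libraries, which need not include the variation between cultures. All libraries come from 1 cell line, which limits it as a model of the bone marrow megakaryocyte.

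Microtubules are hollow polymers of alpha- and beta-tubulin dimers, and each tubulin is made in several isotypes from separate genes, which differ mostly in the acidic tail at the carboxy-terminal end. TUBB1 encodes the beta-1 isotype, which is made almost only in the megakaryocyte lineage, where microtubules slide along the shafts of proplatelets and later form the marginal band of the platelet. Cells also adjust their tubulin mRNAs to the amount of free dimer by degrading these mRNAs as they are translated.

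Library totals were 16159449 to 22821722 counts. Of the 12 megakaryocyte markers checked, 9 reached a mean of 1 CPM (counts scaled to library size), and their summed level was 1151 to 1221 CPM in control and 1139 to 1192 CPM in C3 libraries, while GP1BB and PF4 were at 0. ITGA2B alone held 675 CPM in control and 680 CPM in C3 libraries, and single markers differed either way, such as GP1BA (137 and 102 CPM), VWF (2.85 and 1.85), SELP (105 and 123) and ITGB3 (9.62 and 12.8). The summed level was 63.5 to 72.2 CPM in control and 79.6 to 82.6 CPM in C3 libraries for 7 erythroid markers, 42.3 to 45.3 and 33.7 to 35.9 CPM for 5 monocyte and granulocyte markers, 119 to 133 and 110 to 117 CPM for 6 fibroblast and epithelial markers, and 3.60 to 4.35 and 3.59 to 5.27 CPM for 5 lymphoid markers. The part of these shifts in the tubulin values was not tested. In bulk RNA, fewer cells of a type and less RNA per cell cannot be told apart.

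The tails are where the isotypes differ most, so the last coding bases of the beta-tubulins are shown, read 5′ to 3′ on the coding strand from the principal GENCODE transcript on GRCh38, with the stop codon in capitals. The beta-tubulins on which the results turn, with the close relatives TUBB2B and TUBB4A, end as follows.
TUBB1: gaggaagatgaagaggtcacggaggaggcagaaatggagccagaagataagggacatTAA
TUBB: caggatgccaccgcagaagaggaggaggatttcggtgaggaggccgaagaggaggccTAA
TUBB4B: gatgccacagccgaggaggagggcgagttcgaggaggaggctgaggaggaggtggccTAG
TUBB6: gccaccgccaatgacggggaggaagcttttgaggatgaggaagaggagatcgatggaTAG
TUBB2A: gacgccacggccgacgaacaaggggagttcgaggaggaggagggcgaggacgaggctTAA
TUBB2B: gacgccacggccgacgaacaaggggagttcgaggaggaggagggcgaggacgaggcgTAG
TUBB4A: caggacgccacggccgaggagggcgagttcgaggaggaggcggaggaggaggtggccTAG
Of these 60 bases, counted back from the stop codon, TUBB1 shared 27 with TUBB, while TUBB4A shared 40, TUBB2A 36, TUBB2B 35, TUBB4B 33 and TUBB6 28. TUBB3, whose end is not shown, shared 26, fewer than TUBB1. This count goes position by position without gaps, so tails of unlike length lose matches, and it does not measure likeness of the tails. Across the whole coding sequence TUBB1 was 74.1% to 76.2% identical to the other beta-tubulins, whereas those were 80.9% to 98.1% identical to each other. TUBB2A and TUBB2B, neighbours on chromosome 6, formed the closest beta pair at 98.1%. TUBA1A, TUBA1B and TUBA1C were 95.9% to 97.2% identical in coding sequence and 84.4% to 85.7% identical to TUBA4A.

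TUBB1 was the member that differed most after C3 treatment. TUBB1 (ENSG00000101162, chr20:59019429-59026654, plus strand, 4 exons) had 43, 39 and 32 counts in the control libraries and 8, 20 and 23 in the C3 libraries. Normalized for library size and composition these were 42.1, 41.4 and 38.2 in control and 9.11, 19.1 and 18.04 in C3 libraries. All 3 C3 libraries were below all 3 control libraries, and C3 replicate 1 was the lowest. TUBB1 fell from 40.6 ± 2.07 to 15.4 ± 5.50 normalized counts (SD, n = 3 each), a 2.56-fold lower level. The log2 fold change was -1.36 (SE 0.31, 95% interval -1.99 to -0.72), with an adjusted p of 0.00253 by the quasi-likelihood test of edgeR after Benjamini-Hochberg adjustment over all genes tested. The exact two-sided permutation test gave p = 0.1, the smallest value that 3 against 3 libraries allow.

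The call for TUBB1 rested on single libraries. Without control replicate 1 the log2 fold change was -1.31 with an adjusted p of 0.0127 in the edgeR fit, and without C3 replicate 1 it was -1.12 with an adjusted p of 0.0105, both above the 0.01 gate. The level was low in either group, at 1.98 to 2.23 CPM in control and 0.484 to 1.07 CPM in C3 libraries. Summed over libraries, 114 counts in control against 51 in C3 gave a ratio of 0.392 with a 95% interval of 0.276 to 0.550, in which counting error alone enters. Among the 2174 genes with a mean normalized count of 15 to 50, 0.368% were called lower and 3.31% higher, and TUBB1 ranked 5 of the 222 genes called lower by size of change.

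**Figure D1:**
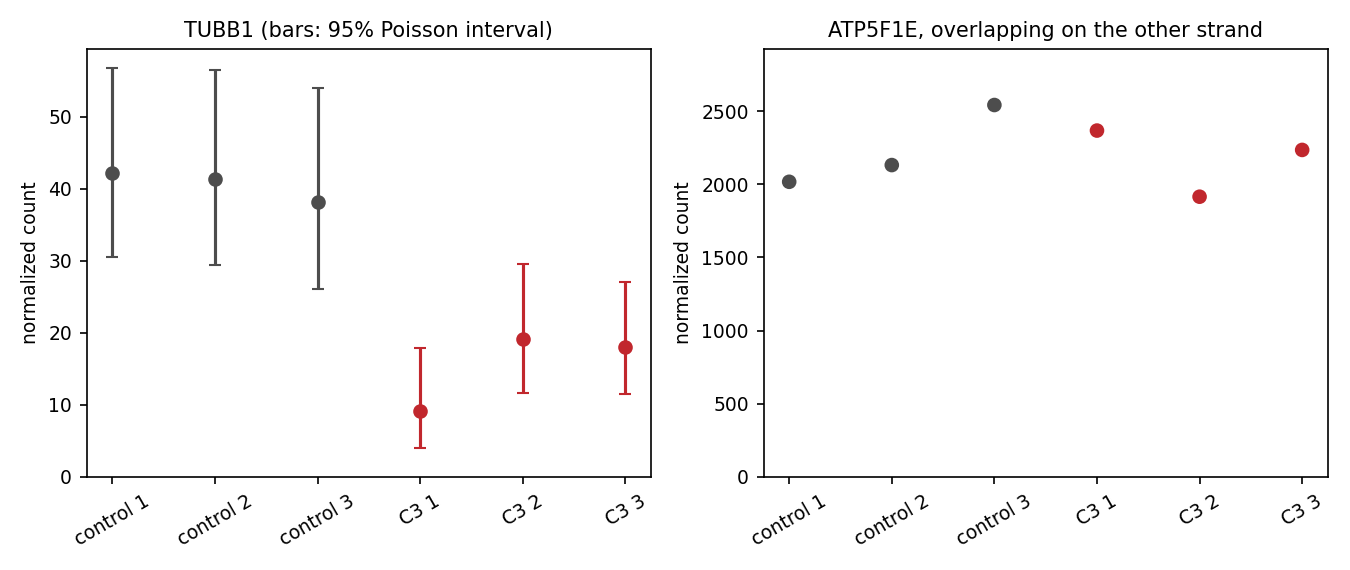
Normalized counts of TUBB1 (left, with 95% Poisson intervals for counting error) and of ATP5F1E, the gene that overlaps its 3′ end (right), in each control (grey) and C3 (red) library. TUBB1 lies at 38.2 to 42.1 in control and 9.11 to 19.1 in C3 libraries, while the ATP5F1E values of both groups overlap.

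The 3′ end of TUBB1 lies over another gene. Of its exon bases, 1180 (35.5%, chr20:59025475-59026654) are shared with ATP5F1E, which encodes the epsilon subunit of the mitochondrial ATP synthase on the minus strand. None of the shared bases is coding, since the TUBB1 coding sequence ends at position 59024783. ATP5F1E had 2230 ± 276 normalized counts in control and 2172 ± 233 in C3 libraries, a log2 fold change of -0.04 (SE 0.08) with an adjusted p of 0.80 in the same edgeR fit. No source used here gives the strand setting of the counting, so reads of both genes over the shared bases cannot be told apart.

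The RefSeq promoter of TUBB1 (GRCh38.p14, chr20:59019179-59019478, plus strand, from 250 bases before to 50 after the gene start) is shown because it belongs to the member that differed most, with motif matches on either strand in capitals.
TUBB1 promoter: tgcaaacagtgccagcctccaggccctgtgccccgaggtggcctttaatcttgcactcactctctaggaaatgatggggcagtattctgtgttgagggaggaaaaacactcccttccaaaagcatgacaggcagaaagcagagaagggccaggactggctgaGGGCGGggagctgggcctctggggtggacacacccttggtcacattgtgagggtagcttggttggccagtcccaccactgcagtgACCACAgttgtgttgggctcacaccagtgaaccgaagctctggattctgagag
It held 1 GGGCGG (GC box, at -88) and 1 TGTGGT (RUNX motif, at -3, read on the other strand), which occur in 45.0% and 13.1% of 35116 promoters of this length. It held none of GATAA (GATA motif, in 22.7% of promoters), TGANTCA (NF-E2 or AP-1 motif, 7.7%), CCAAT (34.6%) or CCGGAA (ETS motif, 17.2%). Its GC content was 56.7%, beside a median of 58.7%. These matches describe letters in this window only.

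None of the more abundant isotypes passed both gates. TUBB (ENSG00000196230, chr6:30717435-30725538, plus strand), the beta-tubulin of most dividing cells, had 46382, 47428 and 47007 normalized counts in control and 44022, 39807 and 39070 in C3 libraries. The groups did not overlap, and the log2 fold change was -0.20 (SE 0.07) with an adjusted p of 0.0434 by the quasi-likelihood test of edgeR after Benjamini-Hochberg adjustment. TUBB4B (ENSG00000188229, chr9:137241287-137243707, plus strand), a widely made isotype that also occurs in cilia, had 11980, 11687 and 10890 normalized counts in control and 10388, 8742 and 8513 in C3 libraries. Again every C3 library was below every control library. The log2 fold change of TUBB4B was -0.32 (SE 0.07) with an adjusted p of 0.00212 in the edgeR fit, which passed the 0.01 gate but not the 1.3-fold gate. Without C3 replicate 1 it passed both, at -0.41 and an adjusted p of 1.17e-05. It missed the 0.01 gate without control replicate 1 (0.0202), control replicate 2 (0.0194), C3 replicate 2 (0.0121) or C3 replicate 3 (0.0379), each left out in turn.

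TUBA1C and TUBA1B, the alpha-tubulins of most dividing cells, did not pass both gates. TUBA1C (ENSG00000167553, chr12:49188736-49274600, plus strand) had 8239, 8530 and 8344 normalized counts in control and 7644, 6690 and 6388 in C3 libraries, without overlap. Its log2 fold change was -0.28 (SE 0.07) with an adjusted p of 0.00432 in the edgeR fit, under the 0.01 gate and short of the fold gate. TUBA1C missed the 0.01 gate without control replicate 1 (0.0158), control replicate 2 (0.0376), C3 replicate 2 (0.0212) or C3 replicate 3 (0.0701), each left out in turn. With library size alone it also missed that gate (0.0141). TUBA1B (ENSG00000123416, chr12:49127782-49131397, minus strand), the most abundant alpha-tubulin here, had 23251, 23900 and 22074 normalized counts in control and 22366, 18707 and 18482 in C3 libraries. C3 replicate 1 lay within the control range, and the log2 fold change was -0.22 (SE 0.07) with an adjusted p of 0.0352.

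The other members did not pass the test. TUBB6 (ENSG00000176014, chr18:12307669-12344320, plus strand), a divergent isotype that is low in most tissues, had 2035 ± 124 normalized counts in control and 2270 ± 314 in C3 libraries (SD, n = 3), with a log2 fold change of 0.15 (SE 0.08) and an adjusted p of 0.168 in the edgeR fit. TUBA4A (ENSG00000127824, chr2:219249710-219277902, minus strand), an alpha-tubulin abundant in platelets, had 1969 ± 9.78 and 2088 ± 256, with 0.08 (SE 0.07). TUBA1A (ENSG00000167552, chr12:49184686-49189080, minus strand), best known from developing neurons, had 2172 ± 207 and 2283 ± 177, with 0.07 (SE 0.07). TUBB2A (ENSG00000137267, chr6:3153497-3157544, minus strand) had 572 ± 39.6 and 545 ± 46.7, with -0.07 (SE 0.08). The C3 libraries of these 4 genes overlapped the control libraries.

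C3 replicate 1 held the highest C3 value of 8 of the 9 members and the lowest of the remaining one, TUBB1. The share of all genes with their highest C3 value in this library was not counted, so this is not shown to be particular to tubulins. Over all genes, 340 were called lower without C3 replicate 1, beside 222 with all libraries.

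**Figure D2:**
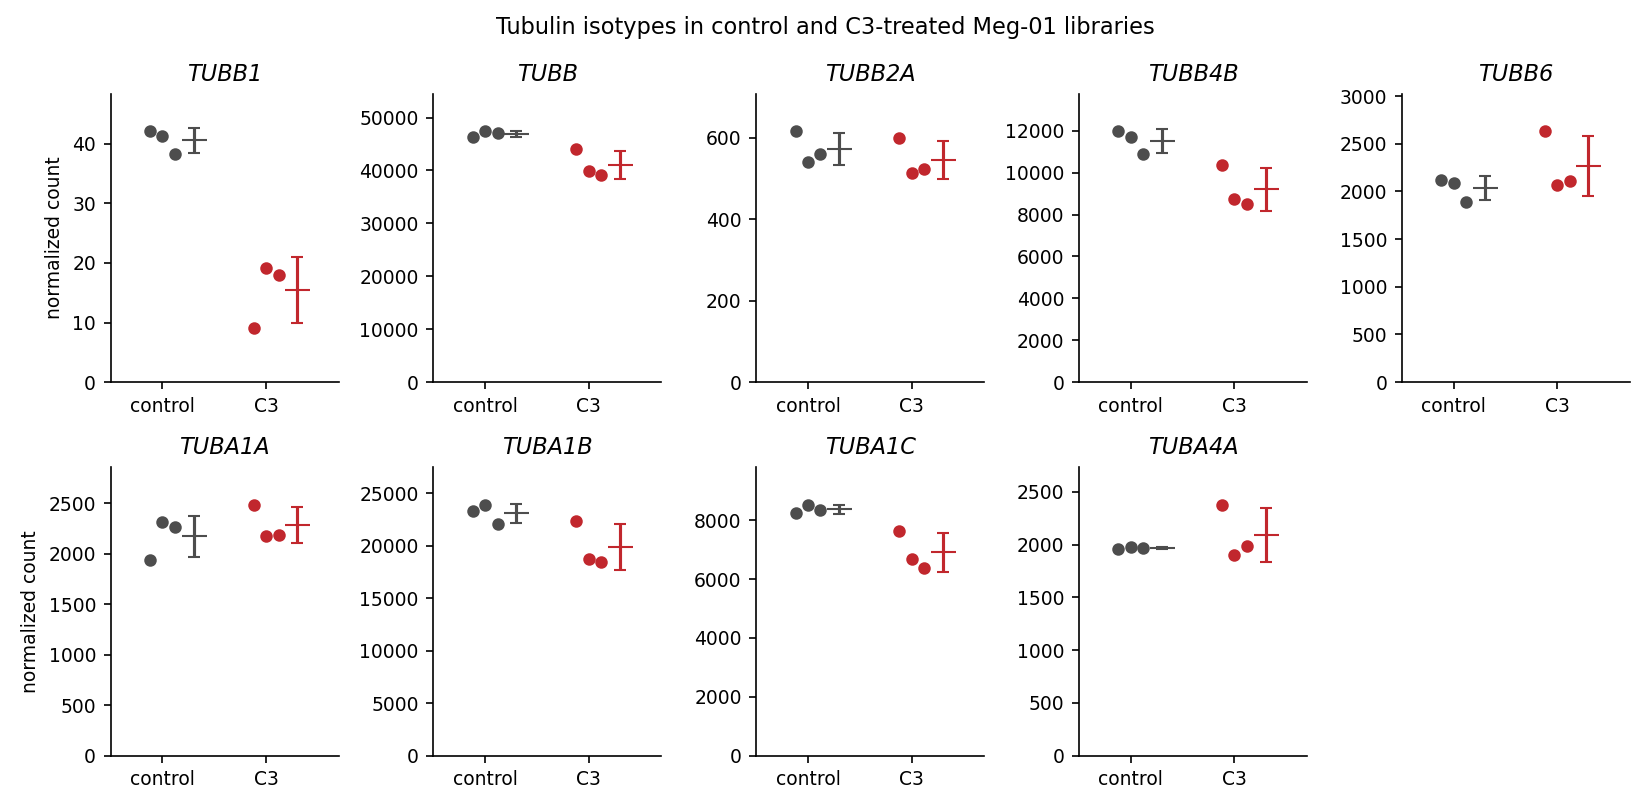
Normalized counts of the 9 detected isotypes in each library, one panel per gene with its own axis from 0, beside the mean and SD of the 3 libraries of each group (control grey, C3 red). TUBB1, TUBB, TUBB4B and TUBA1C do not overlap between the groups, and C3 replicate 1, the first red point, is the highest C3 value in every panel except TUBB1.

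TUBB3 (ENSG00000258947, chr16:89921392-89938761, plus strand), the isotype used as a neuronal marker, was listed at 0 in all 6 libraries, which allows up to 0.056 CPM over the control and 0.0517 CPM over the C3 libraries for counting error only. Of the 50-base stretches of its transcripts, 92.8% also occur in a readthrough gene (ENSG00000198211) on the same strand, which was also at 0 in every library. Reads that fit both genes could have been left uncounted, so the zero does not show that TUBB3 was silent. MC1R, the gene upstream in that readthrough, had 5 to 12 counts in control and 12 to 14 in C3 libraries.

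Read as a group, 1 of the 9 tested members, TUBB1, was called lower and 0 higher at an adjusted p below 0.01 with a fold change above 1.3, beside 1.47% of all genes called lower and 5.05% higher. At an adjusted p below 0.01 and any fold change, 3 members were lower (TUBB1, TUBB4B and TUBA1C) and 0 higher, beside 4.06% and 6.51% of all genes. Without control replicate 1 none of them passed (0.0127, 0.0202 and 0.0158 in the edgeR fit). TUBB4B and TUBA1C also missed 0.01 without control replicate 2, C3 replicate 2 or C3 replicate 3. Without C3 replicate 1, TUBB (0.000471) and TUBA1B (0.000137) passed and TUBB1 (0.0105) did not. Below 0.05 with all libraries, 5 members were lower, with TUBB and TUBA1B added, and 0 higher, beside 8.77% and 11% of all genes. Without C3 replicate 3, TUBB (0.258), TUBA1B (0.245) and TUBA1C (0.0701) missed 0.05 in the edgeR fit. TUBB and TUBA1B also missed it without control replicate 1, control replicate 2 or C3 replicate 2. Lower calls were more frequent among abundant genes. Of the 6294 genes whose normalized count averaged 500 or more, 15.8% were lower below 0.05, beside 4 of the 8 members in that range. The groups did not overlap for 4 of the 9 members and for 34.4% of all genes. The median log2 fold change was -0.20 over the members and 0.00 over all genes.

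**Figure D3:**
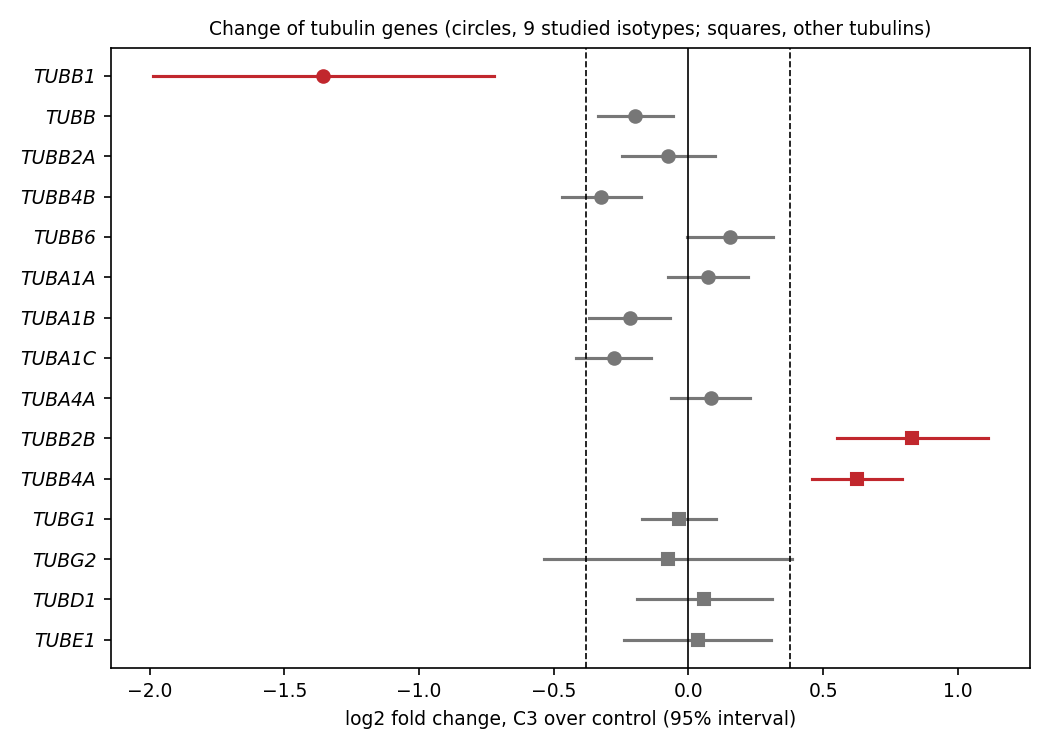
Log2 fold change of C3 over control with its 95% interval from the edgeR fit for the 9 detected isotypes (circles) and 6 other tubulins (squares). Red marks genes that passed both gates, and dashed lines mark the 1.3-fold gate, which only TUBB1 among the circles exceeds.

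Levels of different genes were compared per kilobase of the principal transcript. In control libraries the order of the mean normalized counts per kilobase was TUBB at 18664, TUBA1B at 14183, TUBB4B at 7370, TUBA1C at 2965, TUBA1A at 1299, TUBB6 at 1083, TUBA4A at 961, TUBB2A at 354 and TUBB1 at 12.2, and no neighbours overlapped. In C3 libraries the order was the same, with TUBB at 16289, TUBA1B at 12202, TUBB4B at 5895, TUBA1C at 2447, TUBA1A at 1365, TUBB6 at 1208, TUBA4A at 1019, TUBB2A at 337 and TUBB1 at 4.65. There TUBA1A overlapped TUBB6, and TUBB6 overlapped TUBA4A. In control libraries the separation of these genes depended on the division by length. Their undivided normalized counts there were 1934 to 2315 for TUBA1A, 1893 to 2121 for TUBB6 and 1959 to 1979 for TUBA4A, which overlap. TUBB and TUBA1B thus held the top of both orders, and the lineage isotype TUBB1 the bottom.

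The summed level of the members per kilobase was 46891 ± 998 in control and 40767 ± 3703 in C3 libraries (SD, n = 3). All C3 libraries were below all control libraries, a difference of -13.1% with p = 0.1 by the exact two-sided permutation test. The beta members summed to 27483 ± 407 and 23734 ± 1908, where the groups did not overlap. The alpha members summed to 19408 ± 615 and 17032 ± 1796, and there C3 replicate 1 lay within the control range (exact permutation p = 0.2). The log2 ratio of alpha to beta members was -0.78 in control and -0.77 in C3 libraries, a difference of 0.01 with an exact permutation p of 0.7. The members held 0.493% to 0.515% of all counts in control and 0.443% to 0.492% in C3 libraries.

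Within a library, the mix of isotypes does not depend on the scaling between libraries. TUBB1 made up 0.0444% ± 0.0017 of the beta members per length in control and 0.0200% ± 0.0082 in C3 libraries. Its log2 ratio to the sum of all other members was -11.16, -11.22 and -11.28 in control and -13.31, -12.04 and -12.10 in C3 libraries, a difference of -1.26 without overlap. TUBB4B went from 26.8% ± 0.983 to 24.8% ± 0.732 of the beta members, without overlap. TUBB6 went the other way, from 3.94% ± 0.188 to 5.08% ± 0.296, as did TUBB2A, from 1.29% ± 0.0893 to 1.42% ± 0.0287. The share of TUBB, 67.9% ± 1.21 and 68.7% ± 1.01, overlapped between the groups.

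TUBA1B went from 73.1% ± 0.983 to 71.6% ± 0.298 and TUBA1C from 15.3% ± 0.350 to 14.4% ± 0.300 of the alpha members per length. TUBA1A went from 6.69% ± 0.631 to 8.03% ± 0.222 and TUBA4A from 4.96% ± 0.145 to 5.98% ± 0.188. None of these 4 shares overlapped between the groups. Shares of a pool sum to the whole, so they are not independent, and the normalized counts of 34.4% of all single genes did not overlap either. Of 11 log2 ratios between isotypes, 8 did not overlap between the groups, each with an exact two-sided permutation p of 0.1, or 0.1375 after Benjamini-Hochberg adjustment over the 11. They include TUBB6 to TUBB (0.35 higher in C3 libraries), TUBA4A to TUBA1B (0.30 higher) and TUBA1A to TUBA1B (0.30 higher). TUBB1 to the other members, to TUBB and to TUBA4A are also among them and reuse the same TUBB1 counts. TUBB4A to TUBB4B and TUBB2B to TUBB2A, the remaining ones, hold genes called higher. The 8 are therefore not separate results, and the share of other gene pairs without overlap was not counted. TUBB4B to TUBB (-0.13) and TUBA1C to TUBA1B (-0.06) overlapped.

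**Figure D4:**
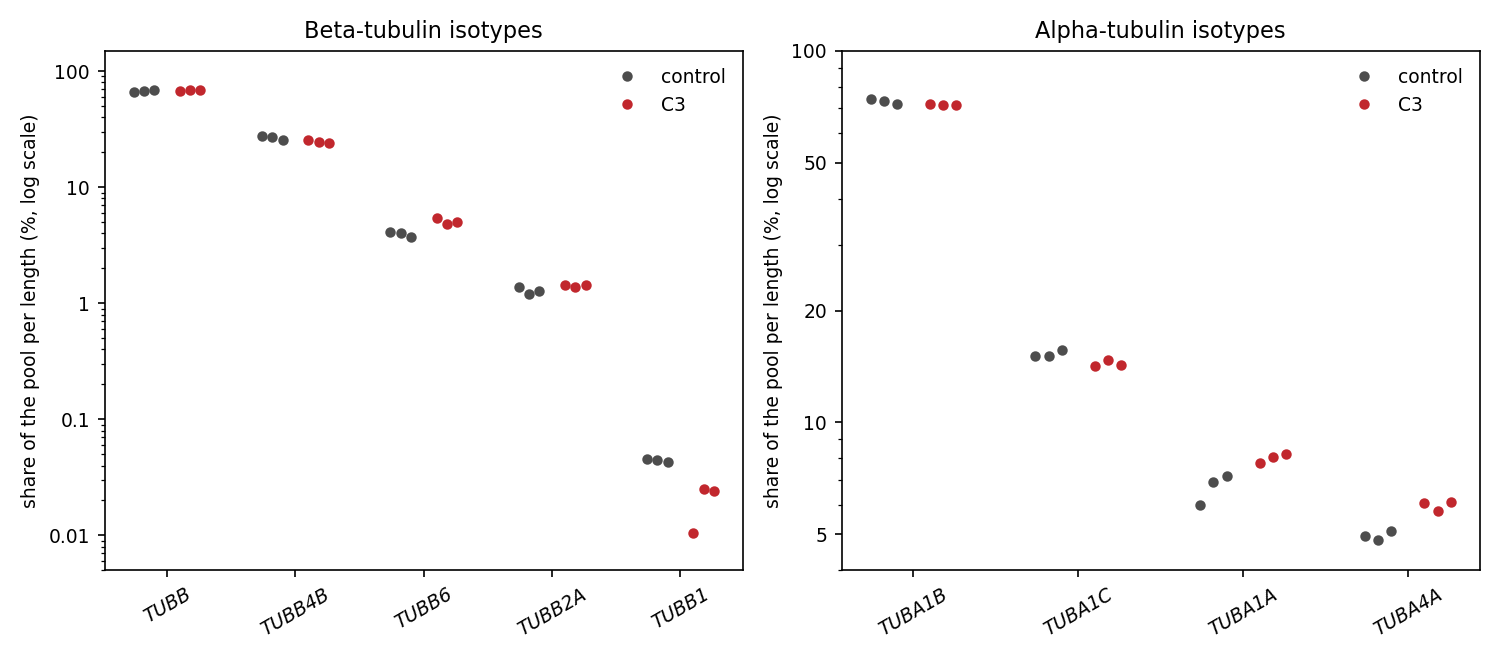
Share of each isotype in the summed level per length of the beta members (left) and alpha members (right), in percent on a log axis, for each control (grey) and C3 (red) library. TUBB1 lies at 0.0426% to 0.0459% of the beta members in control and 0.0106% to 0.0252% in C3 libraries, and the shares of TUBB6, TUBB2A, TUBA1A and TUBA4A lie higher in C3 libraries.

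Reads can be shared between near-identical isotypes, pseudogenes and other genes that overlap a member. Of the 50-base stretches of each gene's transcripts, 87.1% for TUBA1B, 64.6% for TUBB2A, 50.7% for TUBA1A, 42.7% for TUBA1C, 34.6% for TUBB1, 34.5% for TUBA4A, 32.7% for TUBB, 15.3% for TUBB4B and 1.09% for TUBB6 also occur in another annotated gene. For TUBB1 that gene is ATP5F1E, for TUBA1B it is largely the antisense gene TUBA1B-AS1, and for TUBA4A largely STK16, so these shares do not measure likeness between isotypes. For TUBB, TUBA1C and TUBB4A, unnamed annotated genes (ENSG00000272540, ENSG00000258232 and ENSG00000268191) hold the largest share, which for TUBA1C equals that of TUBA1B. How reads with several matches were counted is not given in the sources used here. For TUBB2B and TUBB4A, described next, the share was 54.9% and 28.2%. Pseudogenes named after a member held few counts over all libraries, 185 for TUBB, 2 for TUBB4B and 0 for TUBB1. With these added, the log2 fold change was -0.20 for TUBB and -0.32 for TUBB4B, as without them, and so few counts could hardly move it. Pseudogenes named otherwise, such as TUBAP2, which shares stretches with TUBA1A, TUBA1B and TUBA1C, were not added. TUBB2A summed with TUBB2B was at 0.12 (adjusted p 0.305 in the edgeR fit), beside -0.07 for TUBB2A alone. Apart from these alternatives, how far shared reads affect the levels of these genes was not tested.

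Of 13 other tubulin genes, 6 were tested, 2 were called higher and 0 lower, beside 5.05% and 1.47% of all genes. TUBB4A (chr19:6494319-6502848, minus strand), a beta-tubulin of oligodendrocytes and neurons, had 970, 1073 and 910 normalized counts in control and 1733, 1348 and 1490 in C3 libraries, without overlap. It rose by a log2 fold change of 0.63 (SE 0.08) with an adjusted p of 3.96e-06 in the edgeR fit. TUBB2B (chr6:3223324-3231730, minus strand), a neuronal beta-tubulin, had 118, 115 and 107 in control and 225, 212 and 172 in C3 libraries. It rose by 0.83 (SE 0.14) with an adjusted p of 9.39e-05. The sum of TUBB2B with TUBB2A was not called (0.12, adjusted p 0.305 in the edgeR fit). TUBB2A, at 572 and 545 normalized counts in control and C3 libraries, makes up most of that sum. TUBB2B had no row of its own there, which left 1 other tubulin called higher, so the sum does not test the TUBB2B call. The log2 ratio of TUBB2B to its near-copy TUBB2A was 0.91 higher in C3 libraries and that of TUBB4A to TUBB4B 0.95 higher. The gamma-tubulins TUBG1 and TUBG2, which nucleate microtubules, and the centriolar TUBD1 and TUBE1 did not pass the test, with log2 fold changes of -0.04, -0.08, 0.06 and 0.03. TUBA3C, TUBA3D, TUBA3E, TUBA8, TUBAL3, TUBB8 and TUBB8B had 0 to 6 counts in any library.

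Genes that act on tubulin were read from lists written from general knowledge. Of 21 tested genes for tubulin folding (the CCT chaperonin, prefoldin and tubulin cofactors), 0 were called in either direction, beside 5.05% and 1.47% of all genes, with a median log2 fold change of -0.06. The smallest p was that of the chaperonin subunit CCT2 (-0.16, adjusted p 0.0616). Of the 3 genes of tubulin mRNA autoregulation, 0 were called (all genes, 5.05% higher and 1.47% lower), and 1 was called higher without C3 replicate 1. They include TTC5, which recognises nascent tubulin (-0.11), and SCAPER, which links it to the deadenylase (0.46, adjusted p 0.0402). Of 10 genes of the gamma-tubulin ring complex, 0 were called (1 lower without C3 replicate 1), beside 5.05% higher and 1.47% lower of all genes, with a median of -0.16, and MZT2B had the smallest p (-0.30, adjusted p 0.00815).

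Of 18 tested genes of tail modification, 2 were called higher and 0 lower, with a median of -0.04, where 5.05% and 1.47% of all genes were called. In this list the count of higher calls was 1 with DESeq2 and without control replicate 1, control replicate 2, C3 replicate 2 or C3 replicate 3, each left out in turn. VASH1, which removes the tyrosine from the alpha tail, rose from 483 ± 52.9 to 798 ± 5.29 normalized counts (log2 fold change 0.72, SE 0.08, adjusted p 5.08e-07). TTLL7, which adds glutamates to beta tails, rose from 83.1 ± 9.84 to 133 ± 31.7 (0.70, SE 0.17, adjusted p 0.00491).

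Of 28 tested microtubule-associated and plus-end proteins, 4 were called higher and 0 lower, with a median of 0.10, beside 5.05% and 1.47% of all genes. MAPT (tau) rose from 115 ± 24.5 to 206 ± 23.5 normalized counts (0.84, adjusted p 0.000189), and MAP1B from 65.5 ± 11.7 to 137 ± 13.3 (1.06, adjusted p 5.02e-05). TPPP, which bundles microtubules, rose from 31.2 ± 17.2 to 86.6 ± 2.88 (1.44, adjusted p 0.000181), and MAP7D1, which aids kinesin-1, from 1329 ± 125 to 1891 ± 66.9 (0.51, adjusted p 8.62e-06).

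Of 23 tested kinesin-1 and cytoplasmic dynein genes, motors that carry cargo along microtubules, 2 were called higher and 0 lower (all genes, 5.05% and 1.47%), with a median of -0.06. The count of higher calls was 1 without control replicate 2, without C3 replicate 3 or with a mean count of at least 50, and 1 gene was called lower without C3 replicate 1. KIF5C, a kinesin-1 heavy chain, rose from 13.0 ± 2.48 to 39.7 ± 4.37 normalized counts (1.58, adjusted p 0.00073), and the dynein light chain DYNLT3 from 107 ± 9.24 to 169 ± 17.9 (0.66, adjusted p 0.00138). On the lower side, DYNLL1 (-0.28, adjusted p 0.0069), DCTN3 (-0.30, 0.00882) and DCTN4 (-0.25, 0.00409), a dynein light chain and subunits of its partner dynactin, passed the 0.01 gate but not the fold gate, and were named after their values were seen. Of 9 megakaryocyte transcription factors, 0 were called (all genes, 5.05% higher and 1.47% lower), with a median of 0.02. In this list 1 gene was called lower with DESeq2, RLE factors or limma-voom and without control replicate 3 or C3 replicate 1, and 1 was called higher with library size alone and without C3 replicate 3. NFE2, the factor needed for platelet release that is known to drive TUBB1, had 3201 ± 135 and 2466 ± 187 normalized counts (log2 fold change -0.38, SE 0.07, adjusted p 0.000189), with every C3 library below every control library and a fold change just short of the 1.3-fold gate. All p-values of these lists come from the same edgeR fit.

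**Figure D5:**
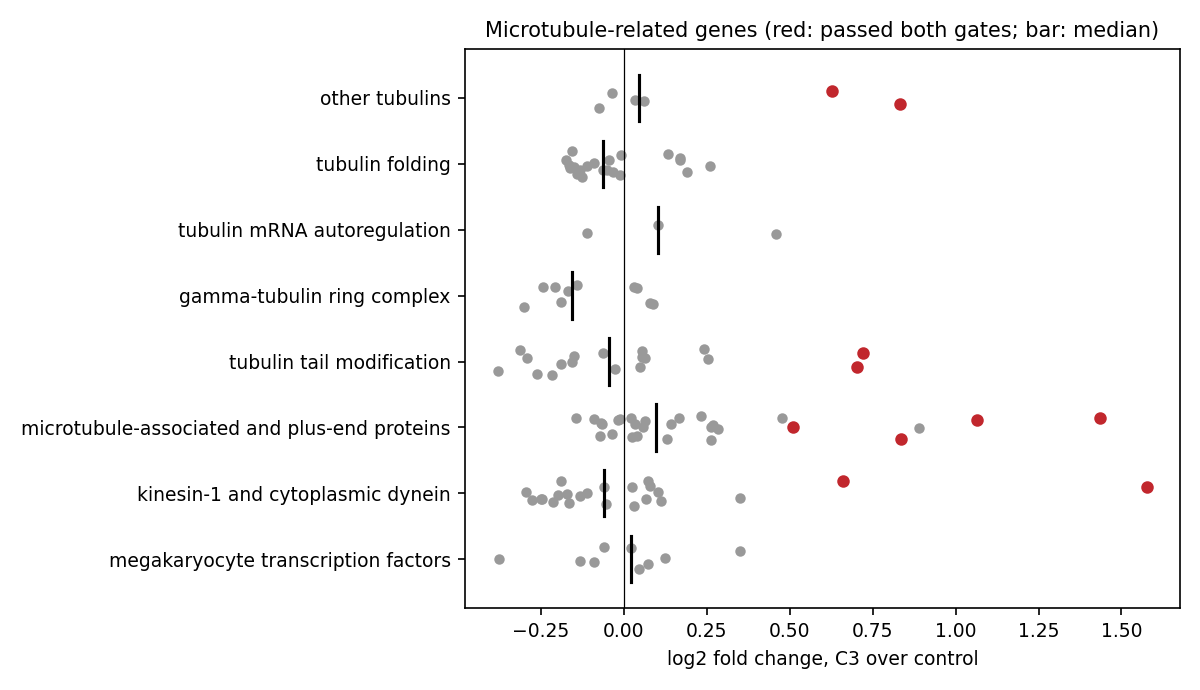
Log2 fold change of C3 over control for each tested gene of 8 lists of the microtubule system and its regulators, with the median of each list as a bar and genes that passed both gates in red. The 10 red points all lie above 0, and the medians lie between -0.16 and 0.10.

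The genes whose pattern over the 6 libraries was most like that of TUBB1 were sought among 11851 genes whose normalized count averaged 50 or more, by the root mean square difference of log2 values centred on the mean. They were DHRS12 (0.335), MT-TY (0.349), MFSD2B (0.353), H4C8 (0.361) and TIGD6 (0.363). DHRS12 went from a mean of 70.2 to 35.4 normalized counts and MFSD2B, a sphingosine-1-phosphate exporter of red cells and platelets, from 181 to 91.8. This likeness is a description over 6 libraries.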

How the data were processed

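RNA of 6 Meg-01 libraries, 3 control and 3 C3, was measured by RNAseq. Per the submitters' processing notes and the methods, the authors used fastp, STAR 2.6.1d (GRCh38/hg38) and featureCounts 1.5.0-p3, and the deposited values are raw read counts per gene without normalization. For the annotation release, strand setting and treatment of reads with several matches, the choice is not given in the sources used here. Columns were assigned to libraries by name.

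The count filter kept 15078 genes (10 or more counts in 3 or more libraries). C3 was set against control on TMM-scaled counts by the quasi-likelihood test of edgeR 4.0.16 in R 4.3.3, and p-values were Benjamini-Hochberg adjusted over all genes tested, without a replicate block. DEGs had an adjusted p below 0.01 and a fold change above 1.3, the gates of the study. Normalized counts are scaled to the mean effective library size. The fit was tested on simulated data, in which all genes shared the common dispersion. The genes changed in it all lay above the mean level of TUBB1, so it is no check of the TUBB1 call. Counting intervals are at 95% and a count of 0 allows 3 counts.

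Lengths, coordinates and coding sequences came from GENCODE release 44 (GRCh38), and promoters from RefSeq (GRCh38.p14). The coding ends of the alpha-tubulins are not reported here. The members and gene lists were chosen with earlier results of these data known. Named genes were all members and other tubulins, in each list up to 4 called genes of smallest p (or, with none, the gene of smallest p), and the 5 genes nearest to TUBB1. TTC5 was added after its values were seen. Alternatives were DESeq2 1.42.0, limma-voom (limma 3.58.1), RLE factors, library size alone, other count filters and gates, a replicate block, each library left out, pseudogene counts added and levels without length. Summing TUBB2A with TUBB2B, merged exon lengths and a beta pool with TUBB2B and TUBB4A were chosen after seeing the data.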

Additional observations from a re-analysis of the deposited data

How the results depend on the processing

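The log2 fold change of TUBB1 kept its sign under all 13 alternatives, with adjusted p from 0.000272 to 0.0127 (edgeR, DESeq2 or limma-voom). Among these, the pseudogene alternative added 0 counts to TUBB1 and was no check of it. With 1 library left out it was -1.51 to -1.12, and the call was lost without control replicate 1 (-1.31) and without C3 replicate 1 (-1.12). With a filter on a mean count of at least 50, TUBB1 was not tested and 0 members were called lower. With 1 library left out, 0 to 1 members were called lower: without control replicate 1 none, and without C3 replicate 1 TUBB4B in place of TUBB1. With no fold gate and all libraries, 3 members were lower at an adjusted p below 0.01 and 5 below 0.05, and both counts moved with 1 library left out. The adjusted p of TUBB ran from 0.000471 to 0.258, that of TUBB4B from 6.82e-06 to 0.0379, that of TUBA1B from 0.000137 to 0.245 and that of TUBA1C from 4.12e-05 to 0.0701. TUBB4A and TUBB2B kept their calls under all 14 alternatives each. The sum of TUBB2A with TUBB2B was not called (adjusted p 0.305 in the edgeR fit), but it is mostly TUBB2A and does not test the TUBB2B call. It left 1 other tubulin called higher because TUBB2B had no row of its own. With no division by length the TUBB1 share of the beta members differed by -0.0367 percentage points, and with merged exon lengths by -0.0372, beside -0.0244.

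Over all genes, 100 were called lower with library size alone, which moved the median log2 fold change of all genes to 0.08, and 129 to 340 with 1 library left out, lowest without C3 replicate 3 and highest without C3 replicate 1. With no fold gate, 1658 were higher and 1323 lower below 0.05, and 612 lower below 0.01. Of the listed genes, 1 was called lower with DESeq2, RLE factors or limma-voom and 0 to 3 with 1 library left out, the most without C3 replicate 1. With no fold gate, 12 were lower and 17 higher below 0.05, and 7 lower below 0.01.

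Signs turned in genes that were not called. TUBB2A summed with TUBB2B was at 0.12, and TUBA4A without C3 replicate 1 at -0.0169 (0.1476 at most). TUBG1 was at 0.0375 with library size alone, 0.0026 without control replicate 1 and 0.0044 without C3 replicate 2 (lowest -0.0826). TUBG2 was at 0.25 without control replicate 2 and 0.05 without C3 replicate 2 (lowest -0.3274), TUBD1 at -0.0189 without C3 replicate 3 (highest 0.1526), and TUBE1 at -0.0558 without control replicate 1 and -0.0287 without C3 replicate 2 (highest 0.1297). The values in parentheses are also with 1 library left out. The cause of these changes was not tested. Same-numbered libraries of both groups did not deviate together (correlations 0.021, -0.047 and 0.030). With 3 libraries per group this cannot decide whether they were handled as pairs. With the replicate block TUBB1 was at -1.38 (adjusted p 0.000457), and 909 genes were called higher and 268 lower. At 8 to 43 counts per library, the depth limits what can be said of TUBB1.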

Other observations

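Further genes of the lists passed the adjusted p of 0.01 in the edgeR fit without reaching the fold gate, and they were chosen after their values were seen. The deacetylase SIRT2, which acts on alpha-tubulin, had 1083 ± 19.8 normalized counts in control and 872 ± 50.2 in C3 libraries (log2 fold change -0.31, adjusted p 0.00187). TTLL12, of the tubulin tyrosine ligase family, had 4596 ± 244 and 3761 ± 411 (-0.29, adjusted p 0.00456). GFI1B, a repressor in megakaryocyte and erythroid cells, had 5397 ± 42.0 and 6881 ± 507 (0.35, adjusted p 0.000329), the opposite direction to NFE2. GATA1 (0.02), FLI1 (0.07) and RUNX1 (-0.13) did not pass the test.

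With TUBB2B and TUBB4A added to the beta members, TUBB4A held 1.54% ± 0.108 of the beta pool per length in control and 2.73% ± 0.184 in C3 libraries, and TUBB2B 0.210% ± 0.00703 and 0.431% ± 0.0423 (SD, n = 3). Neither share overlapped between the groups. TUBB2B was thus above TUBB1 in either group. The share of TUBB2A overlapped between the groups in this wider pool, at 1.27% ± 0.0886 and 1.38% ± 0.0259.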
